A study of Mus musculus with 12 samples.

Results

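The transcript catalogues of BV-2 cells, an immortalised mouse microglial line, listed 16599 distinct exons as exactly skipped, and 8963 of them (54%) were longer than 50 nt with a length that is not a multiple of 3. These frame-shifting exons were taken from the 12 catalogues by event type and length alone, and an exon was counted once for each gene, chromosome, start and end. They lay in 5174 genes, 36.2% of the 14275 genes listed. The other exactly skipped exons were 6259 frame-preserving exons over 50 nt and 1377 exons of 50 nt or less. RNA had been sequenced from 3 libraries each of cells given lipopolysaccharide together with nicotinamide mononucleotide (LPS+NMN), cells given LPS, an endotoxin of bacterial outer membranes that stimulates microglia, cells given NMN, a precursor of NAD, and untreated cells (Control). The study asked how NMN acts on LPS-induced ferroptosis, an iron-dependent cell death, and set LPS+NMN beside LPS for this. All groups are 1 cell line with no tissue context, and the sources used here give neither dose nor time. The labels give the cell type as macroglia, whereas 11 of 14 microglial and macrophage markers were listed in all 12 libraries, against 1 of 7 astrocyte markers and 0 of 6 T and B cell markers. The labels do not say whether the 3 libraries of a group are separate cultures; p-values therefore refer to the spread of these libraries, which may be technical.

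Skipped exons are exons that the splicing machinery can either keep in the mRNA or leave out together with both flanking introns. When the length of such an exon is not a multiple of 3, the reading frame downstream differs between the forms, and 1 of them usually meets an early stop codon. An mRNA whose stop lies well upstream of its last exon junction is a target of nonsense-mediated decay (NMD), a surveillance pathway that degrades it. Genes of splicing factors are known for poison exons, short conserved exons with a stop codon whose inclusion sends the mRNA to this pathway. In the catalogues an exon is listed as skipped in a library only where a form with the exon and a form without it were both present, as a pair of lines. No read count and no depth comes with it, so neither the proportion skipped nor a counting error can be given, and an exon missing from a library may lack either form.

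To place the exons, each was matched to GENCODE M21 (GRCm38) by gene, chromosome, strand, exon length and the lengths of both flanking introns, since the files do not name the mouse assembly of their positions. Sequences below are annotated GRCm38 sequence from the matched transcripts, not reads. The first set shows exons that were listed in all 12 libraries and that matched NMD but no protein-coding transcripts. Noncoding transcripts may hold such exons too, and transcripts with other flanking introns were not compared. Each exon is shown from its first base to the stop codon that its inclusion brings into frame, in capitals. Srsf6, Srsf7 and Tra2b encode serine and arginine rich splicing regulators, Snrpb a core protein of the spliceosome, Hnrnpl an RNA-binding splicing regulator, Sat1 the enzyme that acetylates spermidine and spermine, and Tyrobp the signalling adaptor of Trem2 in microglia.
Srsf6, 268 nt exon at chr2:162932815-162933082, plus strand: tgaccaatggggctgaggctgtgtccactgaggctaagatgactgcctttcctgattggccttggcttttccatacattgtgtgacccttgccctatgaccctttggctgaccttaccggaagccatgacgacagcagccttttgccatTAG
Srsf7, 460 nt exon at chr17:80204622-80205081, minus strand: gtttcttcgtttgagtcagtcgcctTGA
Tra2b, 397 nt exon at chr16:22258865-22259261, minus strand: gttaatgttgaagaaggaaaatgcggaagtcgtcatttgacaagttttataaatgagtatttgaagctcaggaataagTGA
Snrpb, 124 nt exon at chr2:130176629-130176752, minus strand: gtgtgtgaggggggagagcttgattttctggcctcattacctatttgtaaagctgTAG
Hnrnpl, 70 nt exon at chr7:28817335-28817404, plus strand: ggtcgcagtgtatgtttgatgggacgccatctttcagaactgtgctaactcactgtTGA
Sat1, 110 nt exon at chrX:155215121-155215230, minus strand: gttacagtctcTAG
Tyrobp, 67 nt exon at chr7:30415008-30415074, plus strand: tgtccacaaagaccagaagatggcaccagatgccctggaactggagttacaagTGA
The stop came within 14 bases of the exon start in Sat1 and after 152 bases in Srsf6, and in each of the 7 exons the form without the exon is annotated as protein coding.

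The second set shows exons whose listing differed between treated and Control libraries, with the bases that their skipping brings together. Irf7, the transcription factor that drives the second wave of type I interferon, had 3 such exons, of which the 67 nt exon is the 3′ part of the 163 nt exon, in capitals here, so that both share a splice donor. In the joined sequences the first 15 bases are the end of the exon upstream, the rest follows the new junction, and the first stop codon in the shifted frame is in capitals. Il36a encodes a cytokine of the interleukin-1 family, Nup54 a channel protein of the nuclear pore and Nox3 a superoxide-producing NADPH oxidase known from the inner ear. As singly skipped, the exons of Irf7, Il36a and Nup54 were in each of the 9 treated and in no Control library. That of Nox3 was so in 3 of 3 LPS+NMN, 2 of 3 LPS, 0 of 3 NMN and 0 of 3 Control libraries.
Irf7, 163 nt exon at chr7:141264493-141264655, minus strand: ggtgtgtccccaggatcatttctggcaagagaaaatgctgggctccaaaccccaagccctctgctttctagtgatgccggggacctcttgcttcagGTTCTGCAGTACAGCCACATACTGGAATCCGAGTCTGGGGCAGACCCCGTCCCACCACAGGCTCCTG
Irf7, 59 nt exon at chr7:141264725-141264783, minus strand: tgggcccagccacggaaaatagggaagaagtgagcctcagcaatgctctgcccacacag
Irf7, junction without the 59 nt exon: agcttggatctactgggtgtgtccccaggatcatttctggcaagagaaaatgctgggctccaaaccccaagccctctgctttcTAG
Il36a, junction without the 140 nt exon at chr2:24216536-24216675, plus strand: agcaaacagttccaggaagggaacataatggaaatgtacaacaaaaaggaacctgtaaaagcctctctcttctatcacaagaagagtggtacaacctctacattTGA
Nup54, junction without the 188 nt exon at chr5:92425623-92425810, minus strand: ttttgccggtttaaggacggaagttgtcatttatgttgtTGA
Nox3, junction without the 130 nt exon at chr17:3679711-3679840, minus strand: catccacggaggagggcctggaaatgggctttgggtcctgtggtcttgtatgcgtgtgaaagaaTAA
The shifted frame ran for 71 bases past the junction in Irf7, 92 in Il36a, 27 in Nup54 and 52 in Nox3, the stop codon included. In Irf7 that stop lies in the part of the 163 nt exon that the 67 nt exon lacks.

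The frame-shifting exons were mostly of ordinary exon size. The median length was 122 nt, with quartiles of 89 and 173 nt, against a median of 117 nt and quartiles of 84 and 165 nt for frame-preserving exons over 50 nt. Lengths that leave 1 base beyond a multiple of 3 (4499 exons) and those that leave 2 (4464) were about equally common. At the length limit, 65 exons were 50 nt and 65 were 52 nt long, while those of 51 nt keep the frame. Only 309 exons were longer than 1000 nt, and of these 58.3% were listed in 1 library and 6 in all 12. The 6 included Gnas, which encodes the stimulatory G protein alpha subunit (2327 nt), Phf3, a PHD finger protein (1717 nt), Stk11, the kinase LKB1 (1310 nt), Hnrnpc, an RNA-binding protein of nuclear pre-mRNA (1223 nt), and Matr3, a nuclear matrix protein (1093 nt). The shortest exons found in all 12 libraries were 52 nt long, in Cuta, Dda1, Igf1, Ndufs1 and Slx1b. Upstream and downstream introns had medians of 2014 and 2000 nt, against 1925 and 2043 nt for frame-preserving exons. Matched exons had a median GC content of 49.3%, against 50.2% for frame-preserving exons. They were the second exon of the matched transcript in 31.1% of cases, against 20.7% for frame-preserving exons. On every autosome between 51.7% and 57.1% of exactly skipped exons were frame-shifting and over 50 nt, and on the X chromosome 45.3% (210 of 464). These sets are different exons from the same libraries, and the differences were not tested.

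Most genes with a frame-shifting exon had 1 (2919 genes, 56.4%), and 133 genes had 5 or more. Some of these exons overlap, because alternative starts or ends count as separate exons. Of the 8963 exons, 1660 shared a start or an end with another of the same gene, and joining them left 8053. The largest number was in Kcnb2, the gene of a voltage-gated potassium channel, with 13 exons of 100 to 11387 nt, none in more than 6 libraries. All 13 were listed on the strand opposite to the annotated gene, as were 167 exons (1.86%) in 95 genes overall. No source used here gives the strandedness, so reads of a gene and of an antisense transcript cannot be told apart. Mtf2, a Polycomb-associated protein, had 11 exons, Slc38a6, a member of an amino acid transporter family, 10, Dram1, a lysosomal membrane protein, 9, and Atf2, a stress-responsive transcription factor, 8. In Atf2, 4 of the 8 exons were in all 12 libraries, whereas none of the 9 in Dram1 was.

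Most frame-shifting exons were listed in few libraries. Of the 8963, 3454 (38.5%) were listed in 1 library and 1025 (11.4%) in all 12. The shares were 34.4% and 16.4% for frame-preserving exons, and 31.1% and 19% for exons of 50 nt or less. Exons in all 12 libraries were shorter, with a median of 109 nt, than those in 1 library, with 127 nt. By length, 14.6% of exons of 51 to 75 nt and 1.94% of those over 1000 nt were in all 12. In 99.8% of the 68692 pairs of an exon and a library without it the gene itself was listed. In 3.32% of these pairs the exon was instead part of a longer stretch skipped as a whole. Within a library, exons found in all 12 made up between 27.8% and 34.4% of the frame-shifting exons and exons found there alone between 7.39% and 10.3%.

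**Figure D1:**
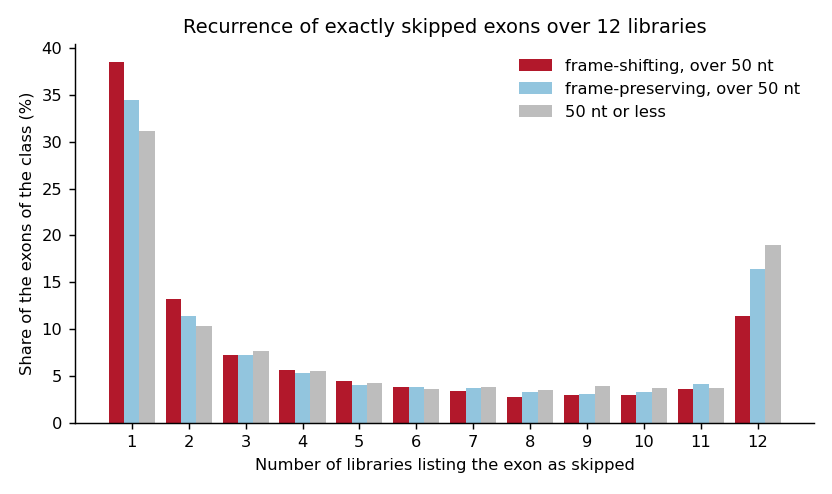
Share of the exactly skipped exons of each class (vertical axis, percent) by the number of the 12 libraries that listed them (horizontal axis), for frame-shifting exons over 50 nt (red), frame-preserving exons over 50 nt (blue) and exons of 50 nt or less (grey). Of the frame-shifting exons 38.5% were in 1 library, 13.2% in 2 and 11.4% in all 12, each number from 3 to 11 held 2.72% to 7.24%, and the bar for 12 libraries is the lowest of the 3 classes.

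In the annotation 5949 of the exons (66.4%) were found, with 95.4% of those in all 12 libraries and 49.8% of those in 1 library. Of the matched exons, 3690 (62%) were coding throughout, 595 held a start or stop codon, 668 lay in the 5′ UTR and 4 in the 3′ UTR. A further 637 (10.7%) matched NMD but no protein-coding transcripts, and 355 matched noncoding ones. Exons in the 5′ UTR, where a shift in length leaves the protein frame as it is, were the most constant of the large categories, with 28.4% in all 12 libraries. Exons that matched NMD but no protein-coding transcripts followed with 21.5%, those with a start or stop codon with 19.3% and coding exons with 13%. Of the 2948 exons without a match in a gene that the annotation names, 1.39% were in all 12 and 57.7% in 1 library. The other 66 were in genes whose name it does not hold. The skip itself was annotated for 3695 matched exons (62.1%), and for 95.7% of the matched exons in all 12 libraries. In 2290 the annotated form without the exon was protein coding and in 857 an NMD transcript.

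**Figure D2:**
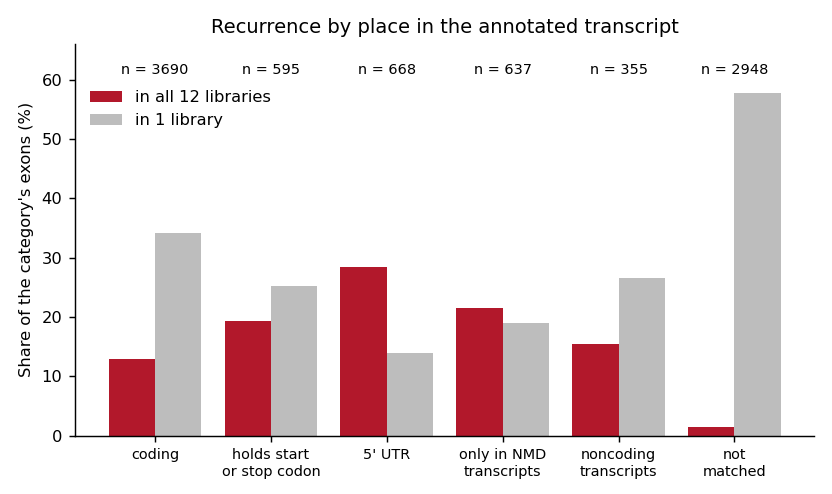
Frame-shifting skipped exons over 50 nt in all 12 libraries (red) and in 1 library (grey), as a share of the exons of each annotation category (vertical axis, percent), with the number of exons above each pair of bars. The category labelled only in NMD transcripts holds exons that matched NMD but no protein-coding transcripts. This category and the 5′ UTR had more exons in all 12 libraries than in 1, and exons without a match had 57.7% in 1 library. The 4 exons in the 3′ UTR and the 66 in genes whose name the annotation does not hold are not drawn.

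Leaving the exon out was then read through the annotated coding sequence. For 3611 coding exons with a complete coding sequence, skipping gave a stop codon more than 50 nt upstream of the last exon junction in 2796 cases (77.4%). A loss of frame follows from the length rule, so this share describes the exons and tests nothing. The median distance of the junction to the end of the stop was 35 nt. Among coding exons in 1 library the share was 82.8% (1019 of 1231), and among those in all 12 libraries 64.6% (303 of 469). In the opposite arrangement inclusion would carry the early stop. As candidates for it, 534 exons matched NMD but no protein-coding transcripts, while a form without them is annotated as protein coding. In 388 of the 534 the stop lay in the exon itself, and for the others the source of the stop was not examined. Of the 534 exons, 127 (23.8%) were listed in all 12 libraries.

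Genes that encode splicing factors held the most constant frame-shifting exons among 14 gene lists. Of 22 listed genes of serine and arginine rich (SR) proteins and their kinases, 17 (77.3%) had such an exon, against 36.2% of all listed genes and 47.2% of genes in all 12 catalogues. Their 30 exons had a median of 11.5 libraries, against 2 for all frame-shifting exons, and 15 of the 30 (50%) were in all 12 libraries. The kinases Clk1, Clk2 and Clk4, which phosphorylate SR proteins, had 2, 2 and 3 of these 15. Their coding exons of 167 and 91 nt in Clk1 and of 88 and 85 nt in Clk2 are ones whose skipping is annotated as giving an NMD transcript. Of the other 8, those in Srsf6, Srsf7, Srsf11 and Tra2b matched NMD but no protein-coding transcripts. In Srsf6, Srsf7 and Tra2b the stop lies in the exon, as shown above. The exon in Srpk1, the other SR protein kinase with 1 in all 12, was 214 nt and coding.

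Of 43 listed genes of hnRNP and related RNA-binding proteins, 27 had a frame-shifting exon, and 25 of their 56 exons (44.6%) were in all 12 libraries. They include a 70 nt exon of Hnrnpl, a 107 nt exon of Hnrnpd, an 83 nt exon of Hnrnpll and a 271 nt exon of Rbm3, a cold-inducible RNA-binding protein. All of these matched NMD but no protein-coding transcripts. Rbm5, a regulator of exon choice, had 3 coding exons of 85, 74 and 61 nt in all 12 libraries, each with an early stop on skipping. For the spliceosome core the figures were 20 of 49 genes and 13 of 36 exons (36.1%), among them 2 exons of 67 nt in U2af1, which recognises the 3′ splice site, and the 124 nt exon of Snrpb. No row of these 3 lists passed the limma test described below in any of the 5 comparisons (10, 17 and 11 rows tested). The genes of NMD itself and of the exon junction complex had such exons in 9 of 26 genes, with 4 of 19 exons in all 12 libraries, in Acin1 and Rnps1. These lists were chosen, their counts are descriptions, and depth or expression of their genes was not measured.

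**Figure D3:**
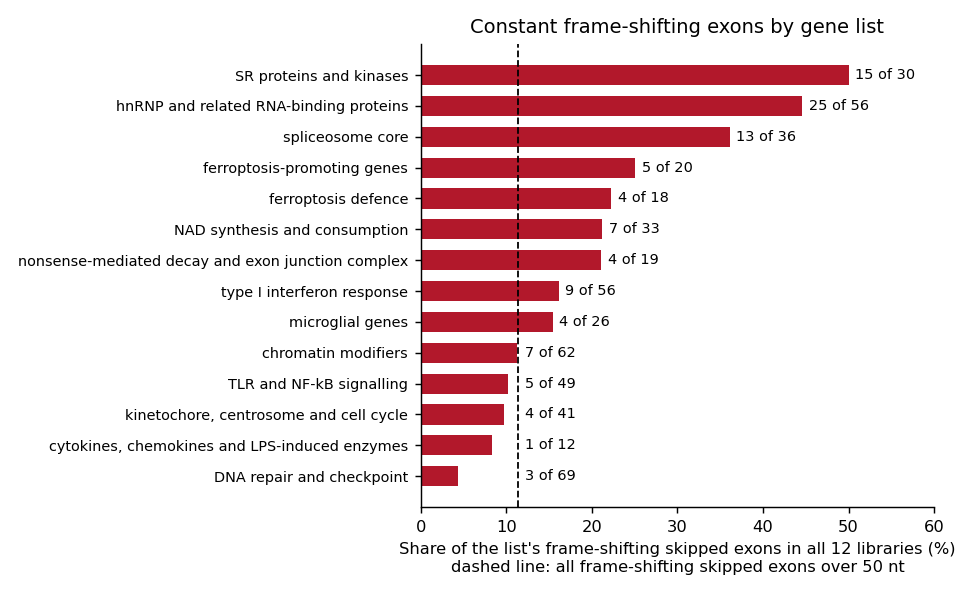
Share of each gene list's frame-shifting skipped exons over 50 nt that were in all 12 libraries (horizontal axis, percent), with the number of exons beside each bar; the dashed line marks the share of all frame-shifting exons, 11.4%. SR proteins and kinases had 50%, hnRNP and related proteins 44.6% and the spliceosome core 36.1%, and DNA repair and checkpoint genes had the lowest share, 4.35%.

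DNA repair and checkpoint genes lay at the other end. Of 53 listed genes 36 (67.9%) had a frame-shifting exon, but 3 of 69 exons (4.35%) were in all 12 libraries and 32 in 1 library. The 3 were an 85 nt exon of Mdm2, the ubiquitin ligase of p53, a 68 nt exon of Mdm4, its relative, and a 94 nt exon of Rad52, a recombination protein. Of the 39 coding exons of this list, 37 gave an early stop on skipping. Chromatin modifiers had 7 of 62 exons (11.3%) in all 12 libraries and genes of kinetochore, centrosome and cell cycle 4 of 41 (9.76%). Among chromatin modifiers the 92 nt exon of Brd2, a reader of acetylated histones, matched NMD but no protein-coding transcripts.

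Ferroptosis genes, the subject of the study, had frame-shifting exons about as often as all listed genes, and less often than genes in all 12 catalogues. NAD genes had them more often than either. Gpx4, the lipid peroxide reductase that guards against ferroptosis, Acsl4, which makes the lipids that are peroxidised, Nampt, the enzyme of the NAD salvage pathway, Tnf and Il1b were each listed in 12 libraries and had none. Slc7a11, the cystine carrier, had 3, of 269, 74 and 76 nt, each only in Control replicate 1, the largest catalogue. Its partner Slc3a2 had a coding exon of 95 nt in all 12 libraries, as had Prdx6, a peroxiredoxin, with 157 nt. Sirt1, an NAD-dependent deacetylase, had 1 exon of 125 nt, which matched NMD but no protein-coding transcripts. It was in 3 of 3 LPS+NMN, 2 of 3 LPS, 1 of 3 NMN and 3 of 3 Control libraries. The ferroptosis defence list had 9 of 25 genes (36%) with a frame-shifting exon, against 36.2% of all listed genes, and 4 of 18 exons in all 12 libraries. The ferroptosis-promoting list had 10 of 27 genes (37%) and 5 of 20 exons, among them the 110 nt exon of Sat1. Of genes in all 12 catalogues 47.2% had such an exon, a higher share than in either list. Of the genes of these 2 lists, 23 of 25 and 25 of 27 were in all 12 catalogues. NAD synthesis and consumption had 20 of 36 genes (55.6%) and 7 of 33 exons, with 2 each in Nadk, the NAD kinase, and Nadsyn1, the NAD synthetase. Microglial genes had 16 of 39 genes (41%) and 4 of 26 exons, in Cd33, Cd68, Cst7 and Tyrobp. None of these 4 lists had an exon that separated a pair of groups in any comparison, being in all 3 libraries of one and absent from the other, and none of their rows passed limma. Over all frame-shifting exons only 0.268% to 0.77% did so in either direction of a comparison, so lists of 18 to 33 exons say little on this. The NAD list does not count Parp9, an ADP-ribosyltransferase gene with a 184 nt exon in all 9 treated and no Control library.

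The immune gene lists differed in how many of their genes had a frame-shifting exon. In the type I interferon list 29 of 54 listed genes had such an exon, and 9 of 56 exons (16.1%) were in all 12 libraries, against 11.4% of all frame-shifting exons. Both subunits of the interferon receptor were among these, Ifnar1 with a coding exon of 179 nt and Ifnar2 with coding exons of 124 and 128 nt. The others were in Irf2 and Irf5, interferon regulatory factors, Oasl1 and Oasl2, relatives of the oligoadenylate synthetases, and Xaf1, an apoptosis factor, with 2. In the TLR and NF-kB list 28 of 56 genes had such an exon, with 5 of 49 exons in all 12 libraries, among them a coding exon of 178 nt in Nfkb1, the p105 and p50 subunit of NF-kB, and exons of the 5′ UTR in Traf3 and Traf6, signalling adaptors. Tlr4, the receptor of LPS, had a coding exon of 167 nt in 0 of 3 LPS+NMN, 1 of 3 LPS, 0 of 3 NMN and 3 of 3 Control libraries. The gene itself was listed in all 12 libraries, and this exon was singled out after its values were seen. Cytokines, chemokines and LPS-induced enzymes had such exons in 5 of 27 genes, with 1 of 12 exons in all 12 libraries, a 140 nt exon of Csf1, the growth factor of microglia. Of the rows of the TLR and NF-kB and the cytokine lists, 21 and 3 were tested and none passed limma in any comparison.

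The number of frame-shifting exons per library did not differ between groups beyond the spread of the libraries. It was 3227, 3145 and 3268 in LPS+NMN, 3187, 3106 and 3187 in LPS, 2977, 3282 and 3321 in NMN, and 3681, 3389 and 3094 in Control libraries. Control libraries spread the most, and their lowest value lay below every LPS+NMN and every LPS library. The means were 3213 ± 62.6, 3160 ± 46.8, 3193 ± 188 and 3388 ± 294 (SD, n = 3 each) in LPS+NMN, LPS, NMN and Control. An exact permutation test, two-sided, gave p = 0.4 for LPS, 0.4 for NMN and 0.5 for LPS+NMN, each against Control, 0.4 for LPS+NMN against LPS and 1 for LPS+NMN against NMN, where 0.1 is the smallest p that 3 against 3 allow. Adjusted over the 5 comparisons by the Benjamini-Hochberg method, the lowest exact p was 0.625. Without NMN replicate 1 LPS+NMN minus NMN was -88.2 exons, against 20 with it. Frame-shifting exons were between 54.7% and 56.5% of the exactly skipped exons over 50 nt in every library. Any 2 libraries of a group shared between 46.1% and 49.2% of the frame-shifting exons that either listed (median 47.2%, 12 pairs), and any 2 of different groups between 44% and 48% (median 46.3%, 54 pairs).

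**Figure D4:**
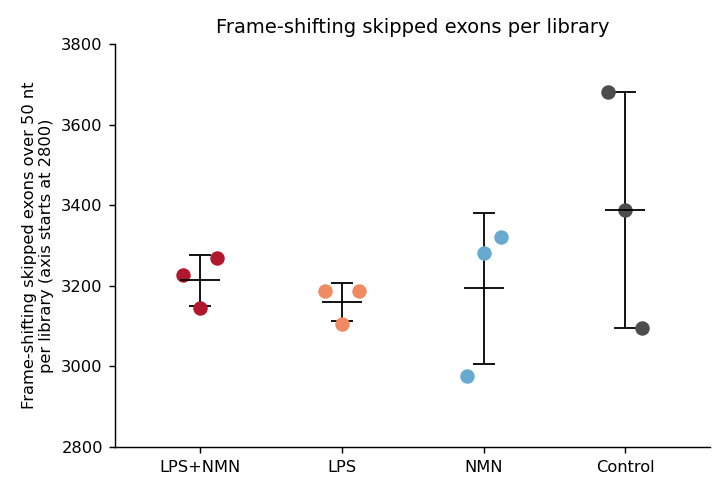
Number of frame-shifting skipped exons over 50 nt in each library (points; the vertical axis does not start at 0) by group, with the mean and SD of 3 libraries in black. The LPS+NMN and LPS libraries lie close together between 3106 and 3268, and Control libraries reach from 3094 to 3681.

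Presence by group was similar in size. At least 1 library of a group listed 5188 of the exons in LPS+NMN, 5067 in LPS, 5133 in NMN and 5363 in Control. All 3 libraries did so for 1697 exons in LPS+NMN, 1668 in LPS, 1684 in NMN and 1821 in Control. Exons listed in a single group numbered 910 in LPS+NMN, 875 in LPS, 883 in NMN and 1059 in Control. Those in all 3 libraries of that group and in no other library numbered only 2 in LPS+NMN, 4 in LPS, 2 in NMN and 7 in Control. The 7 of Control were 0.0781% of frame-shifting exons, against 0.102% of all exactly skipped exons. For the other groups the share over all exactly skipped exons was not computed, so these counts were not compared.

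LPS was set against Control to measure the response to the stimulus itself. In all, 44 frame-shifting exons were in all 3 LPS and no Control library, 0.491% of them, against 0.458% of all exactly skipped exons, and 67 were in all 3 Control and no LPS library, 0.748% against 0.771%. Both shares lay near the background. Interferon-response genes held 8 of the 44 and none of the 67, out of 56 frame-shifting exons in that list. The longest of the gained exons, among genes listed everywhere, were 3388 nt in Akap6, which anchors protein kinase A, 1705 nt in Baz1b, a chromatin remodeller, 1645 nt in Hmbox1, 671 nt in AW554918 and 227 nt in Pid1. Those of Hmbox1 and Pid1 were in no library of the other 3 groups. The longest lost were 4786 nt in Chka, choline kinase, 1222 nt in Dram1, 1187 nt in Pou4f1, 700 nt in Mgst2 and 695 nt in Smim20. Atf2 lost exons of 115 and 179 nt as singly skipped exons: both were in all 3 libraries of LPS+NMN, NMN and Control and in no LPS library. Each was still listed within a skip of several exons together in all 3 LPS libraries.

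Numbers of frame-shifting exons per gene were tested with limma on log2(exons + 1), in 1 table with the other exon classes and p-values adjusted over all 5622 rows. Of the 5174 genes 2901 could be tested; 1858 had such exons in fewer than 3 libraries and 415 had the same number in all. For LPS against Control 3 genes had more and none fewer, where 0.107% of all rows were called higher and 0% lower. At an unadjusted p under 0.05 there were 209 of the 2901, beside 373 of all 5622 rows. The split depended on the fit, with 7 higher and 8 lower without the filter on rows in few libraries, 11 and 5 without trend and robust moderation, and 4 and 2 with the 2 groups alone. Irf7 had 3 exons in each LPS library and 0 in each Control library, a difference of 2.00 ± 0.22 (SE, log2, limma adjusted p = 3.72e-07). Ifi44, an interferon-induced gene, had 3, 2 and 3 against 0, 0 and 0, a difference of 1.86 ± 0.24 (limma adjusted p = 1.5e-05). Dhx58, which encodes the RNA helicase LGP2 of antiviral sensing, had 2 in each LPS and 0 in each Control library, a difference of 1.58 ± 0.27 (limma adjusted p = 0.00131, and 0.0704 when the NMN and LPS+NMN libraries were left out of the fit). In the interferon list 17 rows were tested, and 2 of them, Irf7 and Dhx58, passed. Where a gene has the same number in every library of both groups, as Irf7 does, the SE comes from the moderation across rows, and exons that share an end, such as the 67 and 163 nt exons of Irf7, count separately.

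Irf7 was listed in all 3 Control libraries as well. There its exons of 59, 67 and 163 nt were part of skips of several exons together, in 3 of 3 libraries, and the treated libraries listed these longer skips in addition to the single ones. The difference is thus in which skipped forms were listed and not in whether the gene or the exons were.

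NMN alone was set against Control to measure its effect without LPS. It gained 44 exons (0.491% of frame-shifting exons, against 0.512% of all exactly skipped exons) and lost 57 (0.636% against 0.651%). Interferon-response genes again held 8 of those gained. Limma called 3 genes higher and none lower, where 0.0889% of all rows were called higher and 0% lower. Of the 2901 frame-shifting rows 187 had an unadjusted p under 0.05, beside 333 of all 5622 rows. Without the filter on rows in few libraries 9 were higher and 6 lower, without trend and robust moderation 10 and 4, and with the 2 groups alone 7 and 5. Irf7 had 3 exons in each NMN library against 0 in each Control library, a difference of 2.00 ± 0.22 (SE, log2, limma adjusted p = 3.72e-07). Ifi44 had 2, 2 and 3 against 0, 0 and 0 (1.72 ± 0.24, limma adjusted p = 8.17e-05), and Dhx58 1, 2 and 2 against 0, 0 and 0 (1.39 ± 0.27, limma adjusted p = 0.0164). Dhx58 did not pass without NMN replicate 2 or 3 (limma adjusted p = 0.0837 and 0.0977), nor with the LPS and LPS+NMN libraries left out of the fit (0.376). The LPS and NMN comparisons share their Control libraries. The longest exons gained were 1430 nt in Sbno2, 811 nt in Aim2, a sensor of cytosolic DNA, 446 nt in Olfr111 and 277 nt each in Arsk and Sfxn4; that of Aim2 was in the 3 NMN libraries and in no other. The longest lost were 1351 nt in Klhl38, 836 nt in Fut10, 832 nt in Arhgef1, 764 nt in Xpot, the exporter of tRNA, and 485 nt in Rrnad1.

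With both agents, set against Control, the catalogues gained 59 exons (0.658% against 0.59% of all exactly skipped exons) and lost 69 (0.77% against 0.819%). Limma called 6 genes higher and 2 lower, where 0.196% and 0.0534% of all rows were called. Of the 2901 frame-shifting rows 219 had an unadjusted p under 0.05, beside 385 of all 5622 rows. Irf7 had 3 exons in each LPS+NMN and 0 in each Control library (2.00 ± 0.22, limma adjusted p = 3.72e-07), Ifi44 2, 2 and 3 against 0, 0 and 0 (1.72 ± 0.24, limma adjusted p = 8.17e-05) and Dhx58 1, 2 and 1 against 0, 0 and 0 (1.19 ± 0.27, limma adjusted p = 0.0345). That the groups did not overlap in any of the 3 adds nothing to the calls, since the genes were chosen by them. Dhx58 did not pass without LPS+NMN replicate 2 or 3 (limma adjusted p = 0.246 and 0.0552) or without any 1 of the 3 Control libraries (0.0595 to 0.0969), nor in a fit of these 2 groups alone (0.598).

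The other 5 genes called there were not of the interferon list, and neither was Ifi44. Metap1d, a mitochondrial methionine aminopeptidase, had 4, 5 and 2 exons in LPS+NMN against 0, 1 and 1 in Control libraries (1.50 ± 0.29, limma adjusted p = 0.0135). Its exons of 98 and 1085 nt share a start, and those of 182, 347 and 1085 nt share an end. Only LPS+NMN replicates 1 and 2 listed any of these as singly skipped. Nox3 had 2, 3 and 4 against 0, 1 and 0 (1.64 ± 0.33, limma adjusted p = 0.018). Its 4 exons, of 130, 146, 163 and 182 nt, are all coding, none is annotated as skipped, and each gives an early stop when left out. Milr1, an inhibitory receptor of myeloid cells, had 2 in each LPS+NMN and 0 in each Control library (1.58 ± 0.34, limma adjusted p = 0.0293). The 112 and 410 nt exons behind this matched NMD but no protein-coding transcripts. Metap1d did not pass without LPS+NMN replicate 2 (limma adjusted p = 0.0644), Nox3 without LPS+NMN replicate 3 (0.0984) or Control replicate 3 (0.0717), and Milr1 without any 1 LPS+NMN library (0.0787 to 0.121). None of the 3 passed when a mean of at least 1 exon was required (0.106, 0.106 and 0.233) or without trend and robust moderation (0.132 each).

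Rpusd1, a gene of the pseudouridine synthase family, and Cep55, a midbody protein of the last step of cell division, had fewer. Rpusd1 had 0 in each LPS+NMN and 2 in each Control library (-1.58 ± 0.24, limma adjusted p = 0.000251), and Cep55 0 in each against 3 in each (-2.00 ± 0.38, limma adjusted p = 0.0345). The 140 and 211 nt exons of Rpusd1 end at the same base, and the 71, 133 and 157 nt exons of Cep55 start at the same base, so each gene rests on 1 skipped form. The LPS+NMN libraries still listed both Rpusd1 exons as alternative ends of 1 exon, in 3 of 3 libraries, without the form that skips it. The same held for the 133 and 157 nt exons of Cep55 in 3 of 3 LPS+NMN libraries, and for its 71 nt exon in 2 of 3. Cep55 was also at 0 in 1 LPS library, replicate 3. Leaving out any 1 LPS+NMN or Control library ended the call of Cep55 (limma adjusted p between 0.0812 and 0.189), and that of Rpusd1 was lost in a fit of these 2 groups alone (0.0579).

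LPS+NMN against LPS is the comparison the study named. It gained 41 exons (0.457% against 0.386% of all exactly skipped exons) and lost 47 (0.524% against 0.458%). Limma called none higher and 1 lower, where 0% and 0.0178% of all rows were called. Of the 2901 frame-shifting rows 184 had an unadjusted p under 0.05, beside 299 of all 5622 rows. The gene called was Rpusd1, with 0 in each LPS+NMN and 2 in each LPS library (-1.58 ± 0.24, limma adjusted p = 0.000754). Irf7 had 3 in every library of both groups, Ifi44 had 2, 2 and 3 against 3, 2 and 3, and Dhx58 1, 2 and 1 against 2, 2 and 2, and none of the 3 passed. The call of Rpusd1 was kept without each of the 6 libraries in turn, but not in a fit of these 2 groups alone (limma adjusted p = 0.187). The longest exons gained were 1213 nt in Arfgef3, 1108 nt in Tacc1, 745 nt in Pwwp2a, 662 nt in Wdpcp and 488 nt in Pphln1. The longest lost were 1645 nt in Hmbox1, 449 nt in Josd2, 365 nt in Phf21a, 254 nt in Wipf1 and 247 nt in Pknox1. The Atf2 exons of 115 and 179 nt were among those gained, being in all 3 LPS+NMN and no LPS library.

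LPS+NMN against NMN, the effect of LPS in the presence of NMN, gained 24 exons (0.268% against 0.361% of all exactly skipped exons) and lost 42 (0.469% against 0.476%). Limma called Nox3 higher, with 2, 3 and 4 exons in LPS+NMN against 1, 0 and 0 in NMN libraries (1.64 ± 0.33, limma adjusted p = 0.0479), and Rpusd1 lower (-1.58 ± 0.24, limma adjusted p = 0.000754). These numbers are of singly skipped exons. As part of longer skips, 2 of 3 NMN libraries also listed the 146 and 182 nt exons of Nox3, and 1 of 3 the 130 nt exon. All 3 LPS+NMN libraries listed each of these exons so. Of all rows 0.0178% were called higher and 0.0356% lower. An unadjusted p under 0.05 was found in 150 of the 2901 frame-shifting rows, beside 265 of all 5622 rows. The call of Nox3 was lost without LPS+NMN replicate 2 or 3 (limma adjusted p = 0.102 and 0.271) and without NMN replicate 2 or 3 (0.16 and 0.215), and that of Rpusd1 in a fit of these 2 groups alone (0.119). Cep55 exons accounted for 3 of the 42 lost. The longest exons gained were 488 nt in Pphln1, 200 nt in Esco1, 187 nt in Gen1, 173 nt in Fbxo34 and 170 nt in Lyplal1, and the longest lost were 811 nt in Aim2, 406 nt in Zfp326, 302 nt in Pspc1, 254 nt in Wipf1 and 230 nt in Mcoln3.

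A small set of exons separated all 9 treated libraries from the 3 Control libraries. In all, 14 exons of 11 genes (0.156% of frame-shifting exons, against 0.102% of all exactly skipped exons) were in each LPS+NMN, LPS and NMN library and in no Control library. Without Control replicate 1 the number was 21. Beside the 3 of Irf7, 2 of Ifi44 (101 and 196 nt) and the 169 nt exon of Dhx58, they were in Ifit3 (107 nt) and Trim30a (64 nt), both interferon-induced, Parp9 (184 nt), an ADP-ribosyltransferase of the interferon response, Slamf7 (104 nt), a receptor of immune cells, Il36a and Il36g (140 nt each), cytokines of the interleukin-1 family, Minpp1 (98 nt), an inositol phosphate phosphatase, and Nup54 (188 nt). The interferon list held 7 of the 14, and 56 of all 8963 frame-shifting exons. It does not hold Ifi44, so the 2 exons of that gene are not among the 7. Il36a was listed in no Control library, and Ifi44 and Il36g in 2 of 3, so these genes themselves were missing from some Control catalogues. The other 8 genes were listed in all 3. In the reverse direction 7 exons (0.0781% against 0.102%) were in all 3 Control and no treated library, among them 146 nt in Cul3, a ubiquitin ligase scaffold, 218 nt in Mcat, a mitochondrial acyltransferase, and 167 nt in Pdcd2l. The genes of these 7 were listed in all 9 treated libraries.

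**Figure D5:**
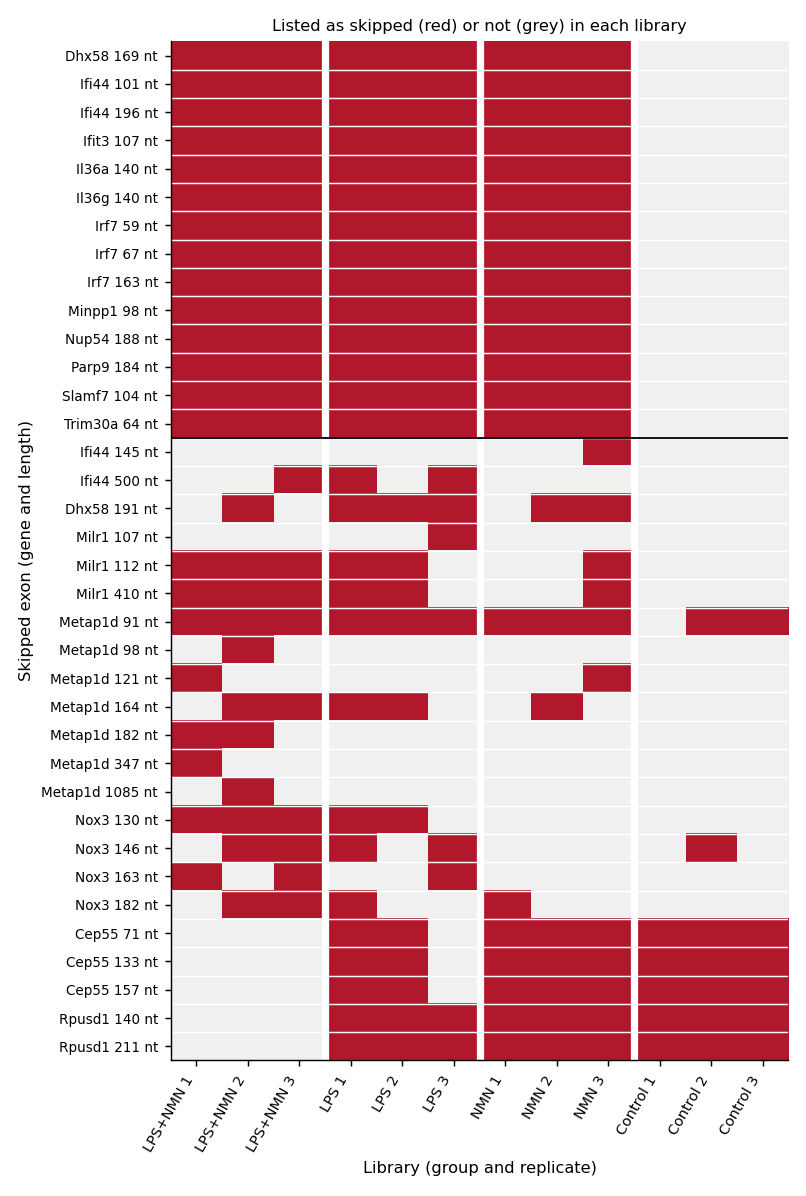
Listing of single exons as skipped (red) or not (grey) in each of the 12 libraries (columns, by group and replicate), one exon a row with its gene and length. Above the black line are the 14 exons in all 9 treated and no Control library, and below it the other frame-shifting exons of the genes called by limma, where Nox3, Metap1d and Milr1 vary among libraries of a group and Rpusd1 is absent from the 3 LPS+NMN libraries alone.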

How the data were processed

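RNA of 12 BV-2 libraries was measured, 4 groups of 3 by the sample titles. The file deposited for each library is a catalogue of transcript events, and per the file headers each line gives a type, gene, chromosome, start, end, pattern and strand. It holds no count, level or depth. BWA 0.7.12, MACS2 2.1.0, HOMER and the build GRCm38 are named, with no role, in the submitters' processing notes; which program wrote the catalogues is not stated in any source used here. Of the matched exons 2.02% lay at their GRCm38 position, so event positions were not converted.

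Exons listed as exactly skipped, over 50 nt and not a multiple of 3 long were taken, once per gene, chromosome, start and end. The exons and the 14 gene lists were chosen with earlier results of these data known. Exons were matched to GENCODE M21 as described, with RefSeq synonyms for gene names.

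Rows of exon numbers per gene and class in at least 3 libraries were tested with limma 3.58.1 (R 4.3.3; trend and robust moderation, pseudocount 1, Benjamini-Hochberg, threshold 0.05), in 1 model of 4 groups, tested on simulated data. Exons per library were compared with exact permutation tests.

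Genes named are those past limma (up to 10 per direction), the 5 longest exons gained and lost per comparison in genes listed everywhere, the 5 genes with most exons, the 5 longest and 5 shortest exons in all 12 libraries, up to 4 genes per list by recurrence, and Gpx4, Slc7a11, Acsl4, Nampt, Sirt1, Tnf, Il1b and Irf7. Other genes named, among them those whose sequence is shown and the exons in all treated or all Control libraries, were chosen after their values were seen.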

Additional observations from a re-analysis of the deposited data

Results flagged for a closer look

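For 2 genes the interaction term of the limma model, the effect of NMN in the presence of LPS minus its effect without LPS, passed the threshold (among 5622 rows, of which 0.0356% were called lower and 0% higher). With LPS alone both were already at or near the highest number of such exons that any library listed. The term by itself cannot show that NMN acted differently, and its cause was not tested. In Irf7 the difference of effects was -2.00 ± 0.31 on the log2(exons + 1) scale (limma adjusted p = 0.000981): the gene had 3 frame-shifting skipped exons in each LPS+NMN, each LPS and each NMN library and 0 in each Control library. The catalogues listed only these 3 such exons of the gene, so no group showed a higher number. In Ifi44 it was -1.86 ± 0.35 (limma adjusted p = 0.0134), with 2, 2 and 3 exons in LPS+NMN, 3, 2 and 3 in LPS, 2, 2 and 3 in NMN and 0, 0 and 0 in Control libraries, out of 4 such exons in all. At an unadjusted p under 0.05 there were 179 of 2901 frame-shifting rows, beside 307 of all 5622 rows.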

How the results depend on the processing

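The files hold no depth, so a missing exon may be a matter of coverage, and small numbers of exons per gene rest on few libraries. Of 17 gene calls, those of Irf7 and Ifi44 were kept under all 13 alternatives in each comparison with Control (lowest and highest adjusted p of limma 1.48e-12 and 0.0208), and those of Rpusd1 under 12 of 13. Against Control, Dhx58 was kept under 12 of 13 for LPS, 10 for NMN and 7 for LPS+NMN, and in LPS+NMN Metap1d under 10, Nox3 under 9, Milr1 under 6 and Cep55 under 4; Nox3 against NMN was kept under 5. Over all alternatives, 177 values of single genes kept their call and 44 lost it, and none changed direction.

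Limma calls among frame-shifting rows, 3 for LPS, 3 for NMN and 8 for LPS+NMN against Control, 1 for LPS+NMN against LPS and 2 for LPS+NMN against NMN, numbered 15, 15, 23, 7 and 6 without the filter on rows in few libraries and 16, 14, 16, 7 and 6 without trend and robust moderation. With only the groups compared in the fit they were 6 for LPS and 12 for NMN against Control and 2 for LPS+NMN against LPS. With approximate skips added there were 5 for LPS against Control. Requiring a mean of at least 1 exon gave 4 for LPS+NMN against Control and 1 for LPS+NMN against NMN. A pseudocount of 0.5 gave 2 for LPS+NMN against LPS and 1 for LPS+NMN against NMN. Leaving out 1 library gave 3 to 6, 2 to 7, 6 to 10, 1 to 6 and 1 to 6 calls in the same comparisons.

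The replicate numbers are shared between groups, but same-numbered libraries correlated between -0.03 and 0.05 in their deviations. With the replicate block limma called 3, 3, 10, 2 and 2 rows, with Nox3 lost in LPS+NMN against NMN (adjusted p = 0.0996). The sign-change test of exons per library gave exact p of 0.5, 0.75, 0.5, 0.25 and 1. With 3 pairs of libraries 0.25 is the smallest p it allows, so it could not have passed.

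Exons gained or lost by a whole group numbered 111, 101, 128, 88 and 66, and with 1 library left out, which weakens the criterion by construction, 220 to 267, 198 to 251, 236 to 287, 179 to 220 and 157 to 180. Over 100 nt, which leaves fewer exons, 56 remained for LPS+NMN against LPS and 43 for LPS+NMN against NMN. The 14 exons in all 9 treated and no Control library numbered 10 to 14 under 4 alternatives and 14 to 21 with 1 library left out; these alternatives were chosen after seeing the data. The share of exons in all 12 libraries (11.4%) was 10.1% over 100 nt and 12.4% when exons sharing a start or end were joined.

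The difference in exons per library was -228, -195, -175, 53.3 and 20; as a share of exons over 50 nt it turned to 0.206 percentage points for LPS and 0.677 for LPS+NMN, each against Control, where no difference passed. With 1 library left out it ran between -375 and -81.5, -342 and -48.2, -322 and -28.2, 26 and 87.5, and -88.2 and 83.8; in LPS+NMN against NMN it turned to -7.33 without LPS+NMN replicate 3 and -88.2 without NMN replicate 1. The causes were not tested.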
